A study of Homo sapiens with 12 samples.

Results

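The libraries compared here are the CUT&Tag libraries of HepG2/C3A cells grown with 10 mM sodium succinate for 48 hours, 2 made with an antibody to lysine carrying a succinyl group, whichever the protein (called pan-Ksu, here Ksu) and 2 made with an antibody to histone H3 trimethylated at lysine 27 (H3K27me3). They were chosen by treatment and antibody alone and are 4 of the 12 samples of the series. HepG2/C3A is a subclone of the HepG2 line, which was established from a hepatocellular carcinoma, so every library comes from a single clonal line. The 4 libraries of control cells with the same antibodies, also at 48 hours, serve below as the reference for each comparison of the marks, and the IgG libraries were not analysed here. The labels give the IgG and the H3K27me3 antibody the same catalogue number, so the labels of these antibodies carry a doubt that the peak lists do not settle. The replicates are labelled as biological, and nothing in the labels says how the cultures were separated.

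H3K27me3 is laid down by Polycomb repressive complex 2 (PRC2) and marks genes held silent in a cell type, among them the homeobox genes of other lineages. Succinylation adds a negatively charged group to lysine. On histones it is made from succinyl-CoA and removed by sirtuins, while succinate inhibits the oxygenases of the Jumonji and TET families that demethylate histones and DNA. The comparison asks where the 2 marks lay relative to each other in cells given an excess of succinate.

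Ksu peaks were short and spread over the genome, and H3K27me3 peaks were long and few. The Ksu libraries held 294568 and 629903 peaks with median widths of 582 and 469 bp, and the H3K27me3 libraries held 9985 and 5531 peaks with median widths of 11488 and 17454 bp (replicates 1 and 2). The difference of median width was -4.76 on the log2 scale, Ksu minus H3K27me3, while replicates varied with an SD of 0.34 (2 against 2 libraries, exact permutation p = 0.33). Ksu peaks covered 188 and 329 Mb and H3K27me3 peaks 173 and 140 Mb, 0.68 higher for Ksu on the log2 scale where the replicate SD was 0.43 (exact permutation p = 0.33). Gene bodies made up 41.3% of the chromosomes. In control cells they held 38.9% and 38.4% of the bases under Ksu and 44.9% and 49.6% of those under H3K27me3. In succinate they held 45.1% and 46.5% of the bases under Ksu and 45.9% and 47.9% of those under H3K27me3. The difference in succinate was -0.034 on the log2 scale and less than the replicate SD of 0.039 (exact permutation p = 0.67). With 2 libraries per antibody this two-sided test cannot give a p below 0.33, so each difference is read against the spread of replicates.

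The replicates of the 2 antibodies differed in how well they repeated each other. The H3K27me3 libraries shared 124.2 Mb, a Jaccard index (shared bases over bases in either) of 0.658. The Ksu libraries shared 30.9 Mb, an index of 0.0636, and the index between a Ksu and an H3K27me3 library ranged from 0.0510 to 0.0642. Divided by the product of the covers of the 2 libraries, the shared bases were 1.53 times that product between the Ksu replicates. They were 2.04 and 2.05 times it between Ksu replicate 1 and the H3K27me3 libraries, and 1.53 and 1.51 times between Ksu replicate 2 and the H3K27me3 libraries. Relative to the covers, Ksu replicate 1 thus shared more bases with either H3K27me3 library than with Ksu replicate 2, and Ksu replicate 2 about as many. Since the IgG libraries were not analysed here, no background of the antibodies can be set beside these overlaps.

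The gene starts of 4 genes show what the marks looked like at single promoters. For each, the 250 bases before the start annotated by RefSeq (GRCh38.p14) are printed 5′ to 3′ in the direction of the gene, with every CG dinucleotide in capitals, since CG-rich starts are the usual sites of PRC2. The windows compared with the peaks ran from 250 bases before to 50 bases after the start. These genes are examples of windows wholly covered by a mark or free of it. The start of CYP2E1, the ethanol-oxidising cytochrome P450 of liver, lay wholly under peaks of all 4 libraries (chr10:133527113-133527362, plus strand). The starts of HOXA9, a homeobox gene of body patterning (chr7:27165538-27165787, minus strand), and of WNT1, a secreted signalling ligand (chr12:48978072-48978321, plus strand), lay wholly under both H3K27me3 libraries and under no Ksu peak. The start of KRTAP6-2, a keratin-associated protein gene of hair (chr21:30598903-30599152, minus strand), lay wholly under both Ksu libraries and under no H3K27me3 peak. KRTAP genes are a family of similar sequences, so reads there may be placed with less certainty.
CYP2E1: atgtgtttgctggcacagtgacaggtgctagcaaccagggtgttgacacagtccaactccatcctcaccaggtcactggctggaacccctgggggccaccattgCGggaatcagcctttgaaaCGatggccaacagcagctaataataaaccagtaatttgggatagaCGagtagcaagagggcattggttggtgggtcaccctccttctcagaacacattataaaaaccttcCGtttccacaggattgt
HOXA9: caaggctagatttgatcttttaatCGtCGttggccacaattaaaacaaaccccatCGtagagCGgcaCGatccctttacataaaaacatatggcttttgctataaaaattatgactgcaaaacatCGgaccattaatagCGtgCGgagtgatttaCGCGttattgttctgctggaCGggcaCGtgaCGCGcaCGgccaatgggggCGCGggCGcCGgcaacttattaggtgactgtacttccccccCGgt
WNT1: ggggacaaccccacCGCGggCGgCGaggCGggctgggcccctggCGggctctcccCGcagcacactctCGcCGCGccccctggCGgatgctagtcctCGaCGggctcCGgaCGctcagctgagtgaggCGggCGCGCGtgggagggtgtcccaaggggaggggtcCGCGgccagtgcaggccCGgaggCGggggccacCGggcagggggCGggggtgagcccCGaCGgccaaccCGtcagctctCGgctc
KRTAP6-2: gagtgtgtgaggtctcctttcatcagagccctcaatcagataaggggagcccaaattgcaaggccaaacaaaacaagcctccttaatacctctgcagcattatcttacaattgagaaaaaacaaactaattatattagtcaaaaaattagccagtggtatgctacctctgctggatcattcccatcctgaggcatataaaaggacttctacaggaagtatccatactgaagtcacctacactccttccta
CYP2E1 has 4 CG dinucleotides in this stretch and KRTAP6-2 has 0, while HOXA9 has 20 and WNT1 has 29. Starts wholly under H3K27me3 without Ksu also include those of the keratin genes KRT73 and KRT84, with 0, so these examples do not stand for their class. Of 15842 start windows, 6 were wholly covered in all 4 libraries, 17 wholly under Ksu without H3K27me3 and 1023 wholly under H3K27me3 without Ksu. Ksu peaks were shorter than H3K27me3 peaks and repeated less well between replicates, which limits such counts of whole cover. Taken singly, the Ksu libraries covered 5.35% and 7.37% of the bases of all start windows, beside 6.16% and 10.8% of the chromosomes.

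Starts with Ksu had few CG dinucleotides also over all starts that could be placed. RefSeq start windows were matched for 15842 of 20037 protein-coding genes. Both H3K27me3 libraries had a peak at 1490 of them (9.41%), both Ksu libraries at 240 (1.51%), and all 4 libraries at 33 (0.208%). The median number of CG dinucleotides was 6 at starts with Ksu and 5 at starts with both marks, against 16 at starts with H3K27me3 and no Ksu and 17 over all starts. A count of 10 or more was found at 39.6% of the starts with Ksu, 21.2% of those with both marks, 63.4% of those with H3K27me3 alone and 68.6% of all. Starts with H3K27me3 in both libraries, with or without Ksu, had a median of 14, and 60% had 10 or more. Starts without H3K27me3 had more, with a median of 18 and 69.8%. Among starts under H3K27me3, the Ksu libraries covered 15.02% and 14.5% of the bases where there were 0 to 5 CG dinucleotides. They covered 3.05% and 10.1% where there were 26 or more. Starts without H3K27me3 had the same gradient at a lower level, from 9.32% and 11.3% down to 2.36% and 3.60%. In control cells the Ksu cover of all starts also went from 2.57% and 6.17% in the lowest class to 0.714% and 3.25% in the highest, and base composition as a source of the gradient was not tested.

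Around starts, Ksu was lower than in the flanks. Within 500 bases of starts under H3K27me3, Ksu covered 7.44% and 12.8% upstream and 7.14% and 13.2% downstream in replicates 1 and 2. At 5 to 10 kb it covered 9.65% and 14.0% upstream and 10.5% and 14.3% downstream, so the ratio of near to far was 0.722 and 0.915. At starts without H3K27me3 this ratio was 0.879 and 0.624. In control cells it was 0.813 and 0.944 at starts under H3K27me3 and 1.06 and 1.01 at the others. Within 500 bases of starts without H3K27me3, Ksu was thus lower in both succinate libraries and in neither control library (2 libraries each, not tested further). This split depends on the distance chosen. At 500 to 1000 bases downstream of these starts, control replicate 1 had 0.955%, against 1.33% at 5 to 10 kb downstream. Control replicate 2 had 3.71% at both distances.

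**Figure D1:**
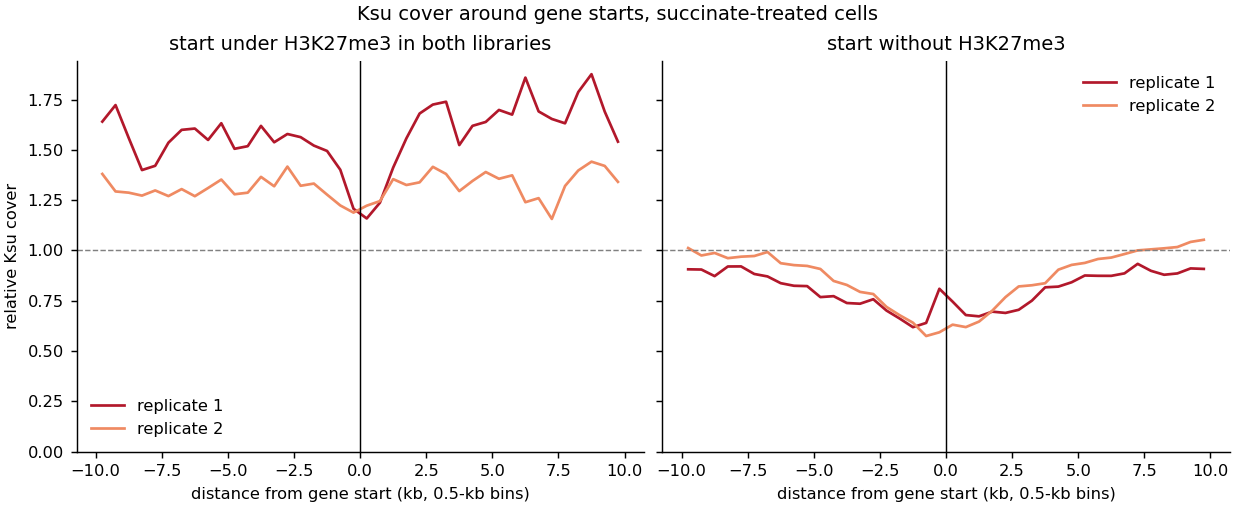
Relative Ksu cover (share of bases under Ksu peaks divided by the share over all chromosomes in that library) in 0.5-kb bins from 10 kb before to 10 kb after gene starts, one line per succinate Ksu library, for starts under H3K27me3 in both libraries (left, 1490) and starts without it (right, 13725). Both lines lie above 1 over the whole left panel. They dip towards the start in the right panel, while on the left the dip is clear in replicate 1 and replicate 2 is as low at 7 to 7.5 kb downstream.

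Ksu lay more densely inside H3K27me3 peaks than outside them. In succinate-treated cells Ksu peaks covered 12.6% of the bases inside H3K27me3 peaks and 5.78% of those outside in replicate 1, a ratio of 2.18. In replicate 2 the shares were 16.3% and 10.5%, a ratio of 1.55. On the log2 scale the 2 pairs averaged 0.88 ± 0.35 (SD, n = 2). Control pairs gave ratios of 1.69 and 1.12, and succinate exceeded control by 0.41 on the log2 scale with a replicate SD of 0.38 (exact permutation p = 0.67), so the ranges of the treatments overlapped. With equal numbers of peaks in every library of an antibody this was 1.02 with a replicate SD of 0.52, and the treatments no longer overlapped (exact permutation p = 0.33, the smallest possible). Nor did they with Ksu expected within each chromosome (0.39) or with replicate numbers crossed (0.45). Each library moved the 0.41 by over 1.5 times when left out, to 0.17 without succinate replicate 1, 0.66 without succinate replicate 2, 0.71 without control replicate 1 and 0.12 without control replicate 2. Bases called in both Ksu libraries made up 2.36% of the 124.2 Mb called in both H3K27me3 libraries and 0.955% of the rest, a ratio of 2.47. The same ratio in control cells was 1.37.

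The difference was smaller within megabase windows. When the Ksu bases expected inside and outside H3K27me3 peaks were taken from each 1-Mb window's own Ksu cover, the ratio was 1.38 in replicate 1 and 1.17 in replicate 2, a mean log2 value of 0.34 ± 0.17 (SD, n = 2). The control ratios by this measure were 1.49 and 1.25. Succinate minus control was -0.11 on the log2 scale with a replicate SD of 0.18 (exact permutation p = 0.67), 0.0097 without succinate replicate 2 and 0.019 without control replicate 1. Ksu cover was thus higher inside than outside within windows in all 4 pairs of libraries, and the values of the treatments overlapped. For bases called in both libraries of each antibody, the ratio within windows was 1.39 in succinate and 1.55 in control.

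The position of Ksu inside H3K27me3 peaks was nearly flat. The outer 25% of the length at each end was covered to 12.5% and 16.4% and the central 50% to 12.7% and 16.2%, log2 ratios of -0.021 and 0.017 with a mean smaller than their SD of 0.027. In steps of 10% of the length, Ksu covered 11.6% to 13.3% in replicate 1 and 15.97% to 16.8% in replicate 2, and in replicate 1 the first and last steps were the lowest. Control pairs had log2 ratios of -0.10 and -0.015 for ends against centre, and succinate minus control was 0.058 with a replicate SD of 0.049 (exact permutation p = 0.67). In succinate the difference between ends and centre was within the spread of the pairs.

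At the edges themselves Ksu was low on both sides over a short distance. In the outermost 200 bases inside a peak, Ksu covered 6.32% and 10.6%, and in the first 200 bases outside 5.08% and 9.06%. From 500 to 1000 bases it covered 12.6% and 17.3% inside and 8.31% and 13.7% outside. The relative cover, which is 1 at the average of all chromosomes, was thus 1.02 and 0.988 in the outermost 200 bases inside and 2.05 and 1.61 at 500 to 1000 bases. Both control pairs also dipped inside the edge, with relative covers inside of 1.08 and 0.751 at the edge and 1.69 and 1.24 at 500 to 1000 bases.

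Beyond the dip, Ksu outside H3K27me3 peaks decreased slowly with distance. Its relative cover was 1.51 and 1.35 at 1 to 2 kb from an edge, 1.28 and 1.27 at 20 to 50 kb, and 1.04 and 1.12 at 200 kb to 1 Mb. In control it was lowest at middle distances and higher again far away, with 1.13 and 0.955 at 1 to 2 kb, 0.982 and 0.864 at 20 to 50 kb, 0.948 and 0.820 at 50 to 100 kb and 1.10 and 1.03 at 200 kb to 1 Mb. Over the 5 kb on each side of an edge, the cover inside was 1.41 and 1.16 times that outside in succinate and 1.49 and 1.20 times in control, -0.067 on the log2 scale with a replicate SD of 0.21 (exact permutation p = 0.67). Without succinate replicate 2 this was 0.071, and without control replicate 1 it was 0.093.

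**Figure D2:**
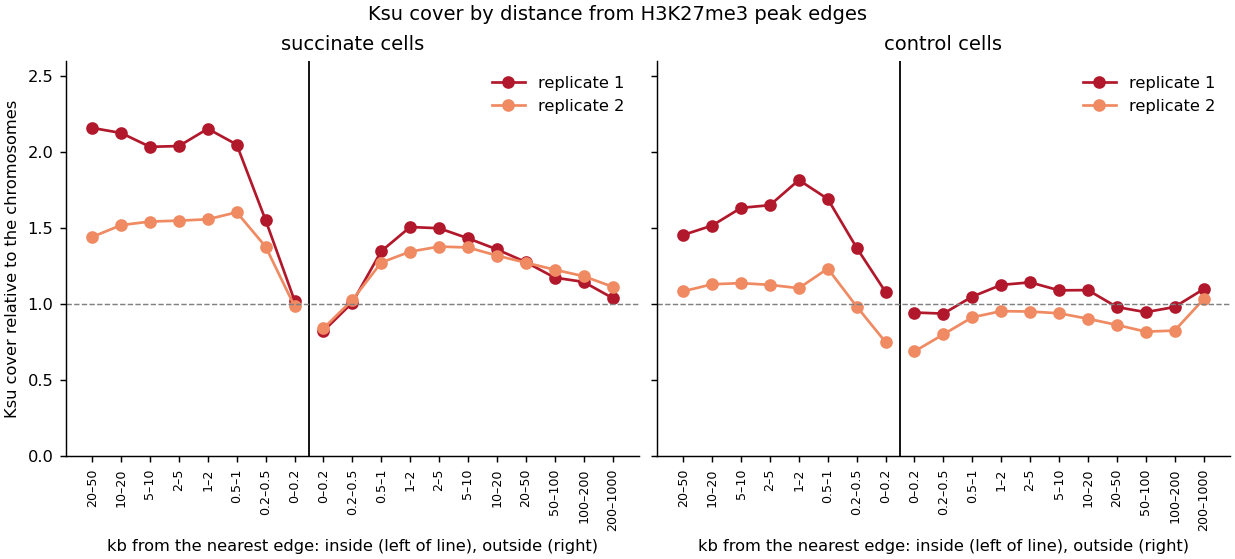
Relative Ksu cover by distance from the nearest H3K27me3 peak edge, inside (left of the black line) and outside (right), for pairs of libraries with the same replicate number in succinate (left panel) and control cells (right panel). Over the 50 kb inside the edge that are drawn, all 4 lines are lowest next to it, and in succinate the cover outside is 1.51 and 1.35 at 1 to 2 kb and 1.04 and 1.12 at 200 kb to 1 Mb.

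The width and strength of an H3K27me3 peak made little difference to its Ksu cover. In replicate 1, peaks up to 10 kb wide were covered to 12.2% and the 83 peaks over 100 kb to 13.8%. In replicate 2, the corresponding shares were 16.1% and 15.5%, for 107 peaks over 100 kb. Between the 20% of peaks with the lowest and the 20% with the highest signal per base, the cover went from 12.01% to 12.7% in replicate 1 and from 16.9% to 15.2% in replicate 2. No Ksu peak touched 1572 of the H3K27me3 peaks (15.7%) in replicate 1 and 95 (1.72%) in replicate 2, and these were shorter, with median widths of 8199 and 9152 bp against 12608 and 17634 bp for the others.

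Seen from the Ksu side, 30652 of the Ksu peaks (10.4%) of replicate 1 overlapped an H3K27me3 peak, which held 5.67% of the chromosomes, and 42116 (6.69%) in replicate 2, where H3K27me3 held 4.57%. In replicate 1 the share of Ksu bases in H3K27me3 was 9.67% in the 20% of Ksu peaks with the lowest total signal and 15.1% in the 20% with the highest. In replicate 2 it was 7.35% in the lowest class, 6.01% in the middle one and 8.10% in the highest. In control replicate 2 the order was the opposite, with 5.99% in the lowest class and 3.25% in the highest, and in control replicate 1 it was 9.55% and 11.7%.

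Over 1-Mb windows the 2 marks had related profiles in succinate-treated cells. Windows with a peak in any library numbered 2906. The Spearman correlation of Ksu with H3K27me3 cover over them was 0.48 and 0.51 for libraries of the same replicate number, beside 0.83 between the Ksu replicates and 0.92 between the H3K27me3 replicates. In control cells it was 0.010 and -0.28. These correlations describe the windows, which share libraries and gene content, and are given without a test. The gene content of windows correlated with their cover by 0.21 and 0.33 for Ksu and by 0.34 and 0.31 for H3K27me3 in succinate, and by -0.11 and -0.28 for Ksu in control, and its part in the relation was not tested.

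Ksu cover followed the H3K27me3 content of windows in steps. The 1324 windows with no H3K27me3 had a median relative Ksu cover of 0.751 and 0.901. The 234 windows with 5 to 10% of their bases under H3K27me3 had 1.07 and 1.23, and the 259 windows with over 20% had 1.52 and 1.34. The order in control was the other way for most of the range, from 0.849 and 1.29 in windows without H3K27me3 to 0.574 and 0.667 at 5 to 10%, and 0.755 and 0.785 above 20%. The bases between H3K27me3 peaks took part in this: outside peaks, Ksu covered 4.88% and 9.35% of windows without H3K27me3 and 8.49% and 13.8% in windows with over 20%. Median gene content was 29.1% in the windows without H3K27me3 and 56.3% in those with over 20%.

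**Figure D3:**
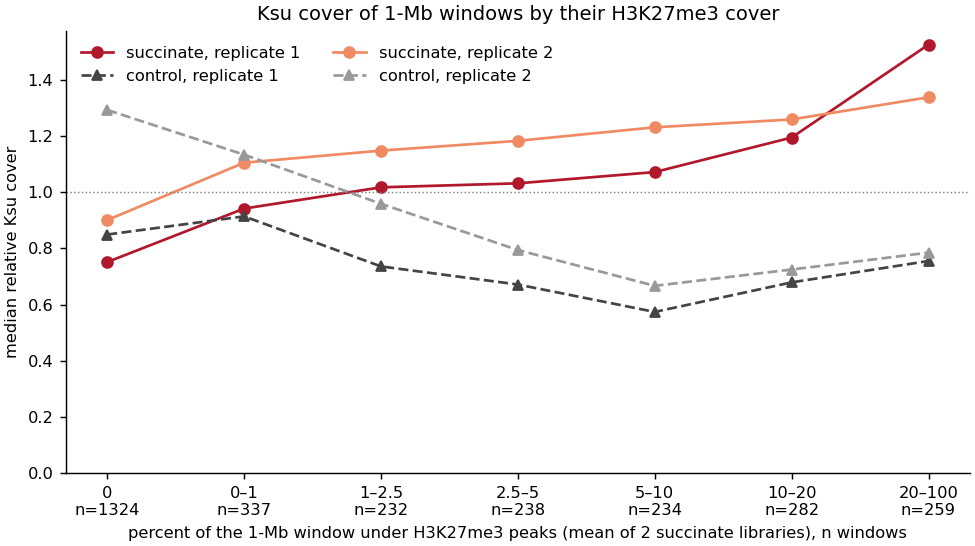
Median relative Ksu cover of 1-Mb windows grouped by the share of the window under H3K27me3 peaks in succinate-treated cells, one line per Ksu library. The succinate lines go from 0.751 and 0.901 in windows without H3K27me3 to 1.52 and 1.34 in the windows with most, and the control lines are lower in H3K27me3-rich windows than the succinate lines.

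The windows with the highest Ksu in the lower of the 2 libraries included both H3K27me3-rich and H3K27me3-poor ones. The highest was the window on chromosome 1 from 14000001 to 15000000, which holds KAZN, a gene of a protein of cell junctions. Its Ksu cover was 22.2% and 21.8%, or 3.60 and 2.02 in relative terms, and its H3K27me3 cover was 35.2% and 28.1%. A window on chromosome 20 from 47000001 to 48000000, with EYA2, ZMYND8, NCOA3 and SULF2, had 17.8% and 21.5% Ksu and 30.9% and 29.0% H3K27me3. By contrast, the window on chromosome 16 from 12000001 to 13000000, with SNX29, CPPED1 and SHISA9, had 13.4% and 21.3% Ksu but only 1.99% and 1.31% H3K27me3. The window with the most H3K27me3, on chromosome 17 from 79000001 to 80000000, had 74.1% and 72.7% H3K27me3 and 14.0% and 11.7% Ksu. It holds the neuronal splicing factor gene RBFOX3. Of the 290 windows, 10% of all, with the highest cover in a library, a Ksu and an H3K27me3 library shared 86 to 100 (29.7% to 34.5%), the Ksu libraries 157 (54.1%) and the H3K27me3 libraries 269 (92.8%).

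Relative to the library average, the H3K27me3 profile was the steeper one. Both Ksu libraries were above both H3K27me3 libraries in 2062 of 2906 windows (71%) and below them in 621 (21.4%). Of the 2062, 1316 had no H3K27me3 in either library, where any Ksu in both libraries places a window in this group. Among the 1582 windows with some H3K27me3, Ksu was above in 746 and below in 621. Among the 24 chromosomes the Ksu libraries were above in 11 (45.8%) and below in 10 (41.7%). On chromosome 20, H3K27me3 cover was 3.10 and 3.33 times the average and Ksu 2.39 and 1.31 times. On chromosome 17, H3K27me3 was at 2.32 and 2.53 and Ksu at 1.18 and 1.16, and on chromosome 22 H3K27me3 was at 2.19 and 2.29 while Ksu was below average at 0.654 and 0.787. The marks were both high on chromosome 10, at 1.78 and 1.78 for H3K27me3 and 1.77 and 1.35 for Ksu, and on chromosome 2, at 1.31 and 1.33 and at 1.72 and 1.28. On chromosome 4 H3K27me3 was at 0.335 and 0.334 and Ksu at 0.761 and 0.935, and on chromosome X they were at 0.0901 and 0.0593 and at 0.214 and 0.432.

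HepG2 is known for extra copies of chromosomes 2, 14, 16, 17 and 20. Ksu on these was 1.72 and 1.28, 0.725 and 0.858, 1.37 and 1.15, 1.18 and 1.16, and 2.39 and 1.31 times the average, and chromosome 14 was below it. Copy number was not measured here, so more signal per copy and more copies cannot be told apart. When the expected Ksu was taken within each chromosome, the log2 ratio of Ksu inside to outside H3K27me3 peaks was 0.69 ± 0.25 (SD, n = 2), against 0.88 over all chromosomes together.

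**Figure D4:**
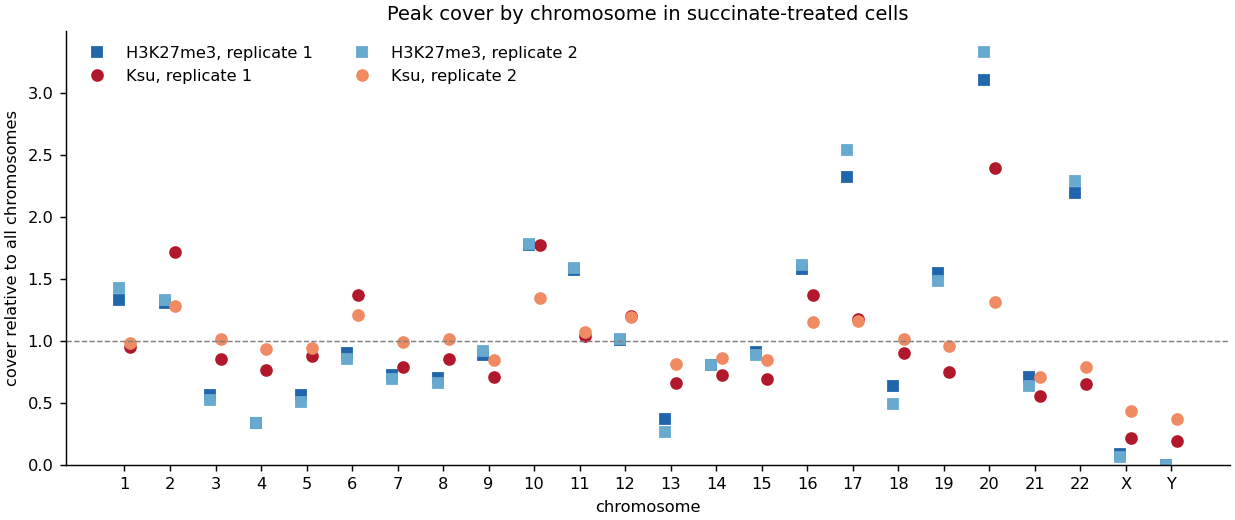
Share of each chromosome under peaks divided by the share of all chromosomes, for the 2 H3K27me3 libraries (squares) and the 2 Ksu libraries (circles) of succinate-treated cells. Chromosome 20 has the highest H3K27me3 (3.10 and 3.33) and the highest Ksu of replicate 1 (2.39), chromosome 10 the highest Ksu of replicate 2 (1.35), and chromosomes 19 and 22 are above 1 in H3K27me3 and below 1 in Ksu.

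Genes were sorted by the peaks over their bodies. Of 20037 protein-coding genes, 2309 (11.5%) were overlapped in all 4 libraries, 147 (0.734%) in both H3K27me3 and neither Ksu library, 10702 (53.4%) in both Ksu and neither H3K27me3 library, and 2241 (11.2%) in none. The other 4638 (23.1%) differed between replicates. Gene length moved with these groups: the median body was 38.4 kb for genes with both marks and 43.4 kb for genes with Ksu alone, but 2.69 kb for genes with H3K27me3 alone and 3.24 kb for genes with neither. Between 5 and 20 kb, 68.9% of the 890 genes with H3K27me3 had Ksu in both libraries, against 50.01% of the 4651 without. Above 100 kb the shares were 100% and 99.2%, so presence alone says little for long genes.

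The share of the body under Ksu separated the genes in every class of length. Bodies of 5 to 20 kb with H3K27me3 in both libraries were covered by Ksu to 9.44% and 13.5%, and those without H3K27me3 to 5.15% and 9.46%. Above 100 kb the shares were 11.1% and 15.3% with H3K27me3 and 5.92% and 11.5% without. The 1735 genes (8.66%) with 50% or more of the body under H3K27me3 in both libraries had relative Ksu covers of 1.97 and 1.47, and the 16048 genes (80.1%) without H3K27me3 had 0.934 and 1.05. In control cells the same 1735 genes had 1.23 and 0.995, and the 16048 had 0.813 and 0.859.

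Among genes of 5 kb or longer with at least 50% H3K27me3, 8 with the highest Ksu were chosen by their values and are described without a test. MATN4, which encodes the extracellular matrix protein matrilin 4 (chromosome 20, 45293450 to 45308684), was wholly under H3K27me3 and had 36.9% and 42.9% of its body under Ksu. DLX4, a homeobox gene (chromosome 17, 49968572 to 49974959), had 58.2% and 28.1%, and EDN3, the gene of the peptide endothelin 3 (chromosome 20, 59300611 to 59325992), had 27.8% and 31.2%. CXCR2, a chemokine receptor gene of neutrophils (chromosome 2, 218125294 to 218137251), had 28.9% and 26.9%. The others were CIMIP1 and DUSP15, also on chromosome 20, SPATA31E1 on chromosome 9 and ZNF843 on chromosome 16, with Ksu between 26.2% and 36.9%. All of these but ZNF843, at 61.4% and 62.6%, were wholly under H3K27me3 in both libraries.

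Over all lengths, 12.3% of all genes had no Ksu in either library. This was 14.0% of those without H3K27me3 and 7.32% of those with 50% or more. The share among all genes of 5 kb or longer was not computed. Of the 1369 such genes with at least 50% H3K27me3, 18 had no Ksu in either library. GCGR, the glucagon receptor gene, whose product is normally made by hepatocytes (chromosome 17, 81804150 to 81814008), was wholly under H3K27me3 and free of Ksu. SIGLEC7, a receptor gene of natural killer cells (chromosome 19, 51142301 to 51153526), was the longest of them at 11.2 kb, with 67.1% and 60.9% H3K27me3. The next by length were LOC124904094, C1QL1, DOK1, a docking protein gene of blood cell signalling, GARIN5B, IGLL5, an immunoglobulin-like gene, and DNAAF3, an assembly factor gene of cilia, with 57.1% to 100% H3K27me3. Genes without H3K27me3 and with the highest Ksu were WFDC13 at 55.1% and 52.0%, IL36A, a cytokine gene, at 37.4% and 39.3%, and the olfactory receptor gene OR2H2 at 33.4% and 40.0%. ERAL1, a gene of mitochondrial ribosome assembly, FAM209A, MOB3C, BTBD18 and NRBP1 followed, with Ksu between 28.7% and 37.5%.

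HOX genes were the list with the most H3K27me3. They had H3K27me3 in both libraries at 33 of 39 bodies (84.6%, against 14.7% of all genes), with Ksu in both at 18 (46.2%, against 68.9% of all genes). HOX bodies are short, with a median of 3.79 kb, and of all genes up to 5 kb Ksu was found in both libraries at 18.7% of those with H3K27me3 and 10.02% of those without. Of these, 18 had both marks and 3 had H3K27me3 alone. HOXB5 and HOXB1 on chromosome 17 had the most Ksu, at 32.2% and 41.9% and at 28.0% and 52.7%, while HOXA9 had none. As a group the HOX bodies had relative Ksu covers of 1.48 and 1.46, where all genes had 1.09 and 1.13. In control cells the HOX values were 0.712 and 0.866, where all genes had 0.935 and 0.924. Potassium channel genes, neurotransmitter receptor genes and neuron markers lay the other way, with higher relative Ksu covers in both control libraries than in the succinate library of the same number.

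Other homeobox genes of development had H3K27me3 at 57 of 90 bodies (63.3%, against 14.7% of all genes). They had both marks at 34, against 11.5% of all genes, with relative Ksu covers of 1.23 and 1.32. In control cells these covers were 1.13 and 1.22, where all genes had 0.935 and 0.924, so unlike HOX genes they were above all genes there too. SIX2, a factor of kidney progenitors, was wholly under H3K27me3 and had 49.9% and 46.1% Ksu, and DLX1 was wholly under H3K27me3 with none. WNT ligands had H3K27me3 at 14 of 19 bodies (73.7%) and both marks at 13, with relative Ksu of 1.63 and 1.36. WNT4 had 23.2% and 15.95% Ksu beside 74.7% and 80.6% H3K27me3. Of the PAX, SOX, GATA and T-box genes, 26 of 50 (52%) had H3K27me3 and 19 had both marks. PAX7, a factor of muscle stem cells (chromosome 1, 18630846 to 18748866), had 99.1% H3K27me3 in both libraries and 21.05% and 26.6% Ksu. GATA3 was wholly covered by H3K27me3, with 7.18% and 15.9% Ksu. Forkhead genes had H3K27me3 at 18 of 51 bodies (35.3%, against 14.7% of all genes). Both marks were found at 5 of the 51, which is near the 11.5% of all genes. H3K27me3 alone was found at 6, among them FOXD1 and FOXD2, against 0.734% of all genes. Forkhead genes had relative Ksu covers of 0.798 and 0.989. These are short genes, with a median body of 4.90 kb.

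Genes of other tissues followed, some of them with more H3K27me3 than the forkhead or the PAX, SOX, GATA and T-box lists, which had 4.77% and 4.72% and 18.3% and 17.6% of their bases under it. Keratin and keratin-associated protein genes had H3K27me3 at 37 of 149 bodies (24.8%, against 14.7% of all genes). H3K27me3 covered 49.2% and 40.9% of their bases. Their relative Ksu covers were 1.63 and 1.33, and in control 0.646 and 0.925. KRT1, a keratin of epidermis, was wholly under H3K27me3 with 30.4% and 23.04% Ksu. Potassium channel genes had H3K27me3 at 40 of 95 bodies, or 42.1% against 14.7% of all genes, and both marks at 37. Their relative Ksu covers were 1.36 and 1.19 in succinate and higher in both control libraries, at 1.59 and 1.49. Neurotransmitter receptor genes had H3K27me3 at 22 of 90 (24.4%), and relative Ksu of 0.975 and 1.01, against 1.36 and 1.39 in control. Clustered protocadherin genes, which share exons so that their bodies overlap, had H3K27me3 at 22 of 53 (41.5%) and relative Ksu of 1.05 and 1.26.

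Olfactory receptor genes of chromosome 11 and ZNF genes of chromosome 19, both large clusters of similar sequences, were almost free of H3K27me3. It was found in both libraries at 2 of 171 and 2 of 246 bodies (1.17% and 0.813%, against 14.7% of all genes). Their relative Ksu covers were 1.06 and 1.12 for the olfactory receptors, which is near that of all genes, and 0.685 and 1.04 for the ZNF genes. Replication-dependent histone genes had H3K27me3 in both libraries at 0 of 72 bodies, against 14.7% of all genes. They had the lowest Ksu of the lists in both libraries, with relative covers of 0.596 and 0.360. Their median length is 0.496 kb.

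The labelled cell type was checked against hepatocyte genes, with the limit that neither mark measures expression. Of 59 plasma protein genes, 58 had no H3K27me3 in either library, as did 15 of 20 hepatocyte transcription factor genes, against 80.1% of all genes. The exception among the plasma protein genes was F12, coagulation factor XII (chromosome 5, 177402141 to 177409564), with 100% and 84.8% H3K27me3 and no Ksu. Among the transcription factor genes GATA4, at 20.02% and 27.7%, GATA6 and NR5A2 had H3K27me3 over part of the body. Marker genes of muscle had H3K27me3 at 9 of 15 (60%), of blood cells at 8 of 15 (53.3%) and of neurons at 4 of 15 (26.7%). Of all genes 14.7% had it, and with 15 genes per list the neuron share differs from this by few genes. The relative Ksu covers of the 3 marker lists lay between 1.13 and 1.67. H3K27me3 covered 42.4% and 43.9% of the bases of the muscle list, 29.97% and 27.5% of the blood cell list and 29.7% and 28.2% of the neuron list. Most of the neuron value came from 1 gene, RBFOX3, with 97.4% and 96.6% H3K27me3 over 576 kb of the list's 2087 kb. In the neuron list 2 of 15 genes had 50% or more H3K27me3 in both libraries. The neuron list had relative Ksu covers of 1.67 and 1.15 in succinate and 1.90 and 1.41 in control. DES, the desmin gene of muscle, was wholly under H3K27me3 with 28.7% and 15.7% Ksu. Plasma protein genes had relative Ksu covers of 0.758 and 0.934, below those of all genes in both libraries. AMBP and ORM1 had the most Ksu of them, at 16.1% and 13.6% and at 23.8% and 12.9%.

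Cytochrome P450 genes had H3K27me3 at 6 of 55 bodies (10.9%, near the 14.7% of all genes). CYP26B1, which degrades retinoic acid, was wholly under H3K27me3 with 9.77% and 29.95% Ksu. CYP2E1 (chromosome 10, 133527363 to 133539123) had 72.7% and 76.4% H3K27me3 and 5.90% and 9.77% Ksu, and its start is the one printed above with all 4 libraries present. CYP8B1, the sterol 12-hydroxylase of bile acid synthesis, had no H3K27me3 and 37.4% and 20.4% Ksu.

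Of 27 genes of succinate metabolism and desuccinylation, 26 had no H3K27me3 in either library, which was also the state of 80.1% of all genes. Ksu was found in both libraries at 22 (81.5%), against 68.9% of all genes and 86.8% of genes of 20 to 50 kb without H3K27me3. The median body of the list is 35.8 kb. It had relative Ksu covers of 0.903 and 1.13. SDHB, a subunit of succinate dehydrogenase, had 11.1% and 15.7% Ksu. SLC13A3, a dicarboxylate transporter gene on chromosome 20, had 19.6% and 16.9%. The one with H3K27me3 was SLC13A2, a kidney and gut dicarboxylate transporter (chromosome 17, 28473644 to 28497781), at 57.5% and 65.6%, with 6.23% and 22.6% Ksu. None of the 25 Jumonji and TET genes had H3K27me3 in either library, against 80.1% of all genes without it. Ksu was found in both libraries at 23, a share of 92% that is near the 99.2% of genes over 100 kb without H3K27me3, as the median body of the list is 103 kb. TET3 had the most, at 14.0% and 22.4%. The relative Ksu covers of the list were 0.806 and 1.05. The genes without H3K27me3 had 0.934 and 1.05, so the list was lower than these in replicate 1 alone.

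Of 12 PRC2 subunit genes, PHF19 alone (8.33%, against 14.7% of all genes) had H3K27me3 in both libraries, at 12.7% and 13.2%, with 14.1% and 20.6% Ksu. Among SLC25 mitochondrial carrier genes 2 of 48 (4.17%) had H3K27me3 in both, of which SLC25A48 had 27.4% and 15.6%. Housekeeping genes had no H3K27me3 at any of 20 bodies, against 80.1% of all genes without it, and relative Ksu covers of 0.636 and 0.755. Ribosomal protein genes had H3K27me3 in both libraries at 1 of 82, RPL38, at 11.7% and 12.3%, and relative Ksu covers of 0.847 and 0.766. In control cells the housekeeping values were 0.0858 and 0.298, so these genes were below the average of their library in all 4 Ksu libraries.

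**Figure D5:**
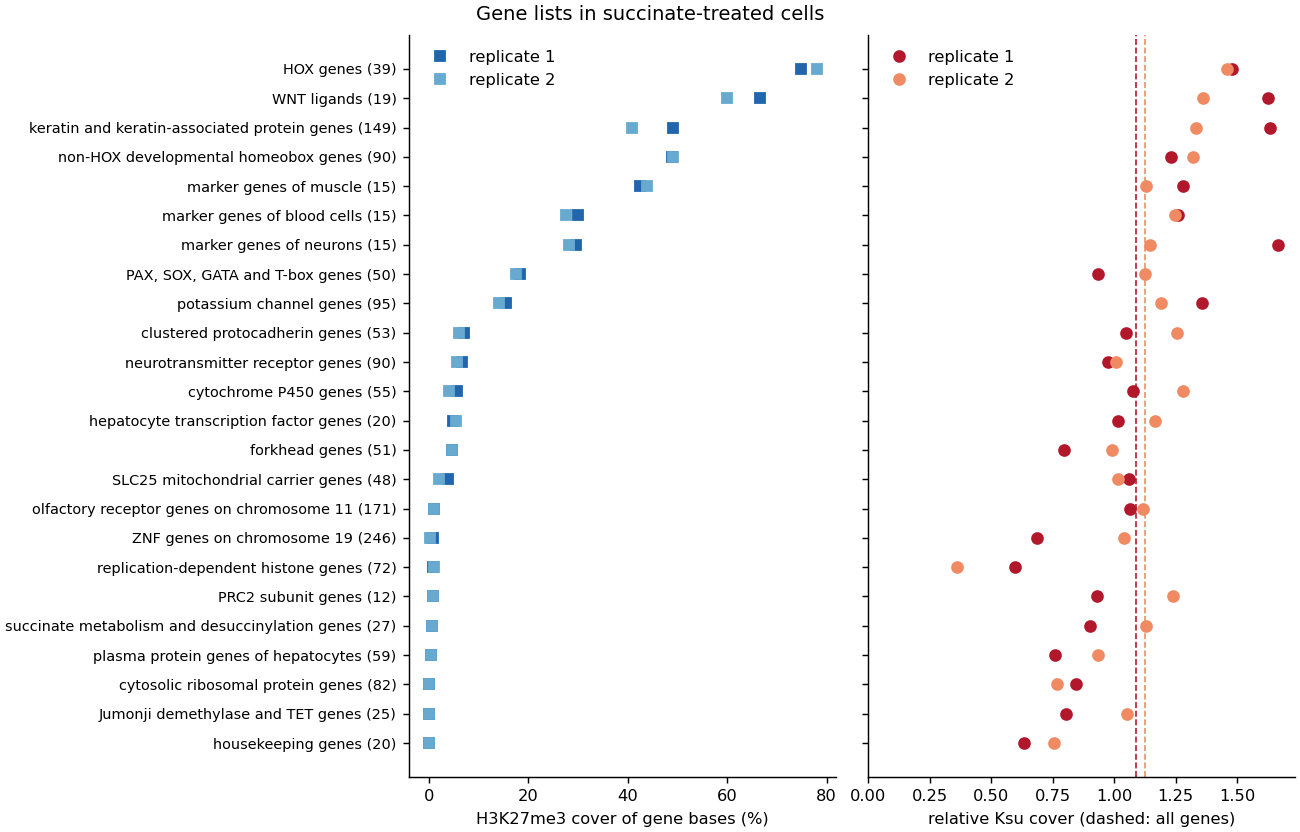
Share of the bases of each gene list under H3K27me3 peaks (left, percent) and relative Ksu cover (right), one point per succinate library, with the number of genes in parentheses and dashed lines at the Ksu values of all genes (1.09 and 1.13). HOX genes, WNT ligands and keratin genes are high in both panels, and housekeeping and histone genes are low in both.

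Single H3K27me3 regions spanned a wide range of Ksu. Merging the 2 lists gave 9190 regions, of which 5206 were found in both libraries, and 4759 of these had Ksu in both Ksu libraries and 18 had none. Of the 2724 regions of 20 kb or longer, each had some Ksu in at least one library, with median covers of 11.4% and 16.2%. The share for other stretches of such lengths was not computed. Ksu was in both libraries at 86.8% of genes of 20 to 50 kb without H3K27me3, so presence alone says little here. The longest region found in both libraries lay on chromosome 17 from 79084570 to 79552141 over ENGASE and RBFOX3, with 18.4% and 13.9% Ksu. The next, on chromosome 20 from 61653813 to 61943106 in the cadherin gene CDH4, had 25.4% and 12.1%.

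The regions of at least 20 kb with the most Ksu lay on chromosome 20 from 44008645 to 44046293 in TOX2, with 40.8% and 44.8%, between positions 40850218 and 40875708 of the same chromosome, where no protein-coding gene lies, with 37.4% and 44.3%, and on chromosome 1 from 15273247 to 15318612 in FHAD1, with 32.8% and 30.5%. Those with the least lay on chromosome 12 from 52024432 to 52046544 at NR4A1, an immediate early nuclear receptor gene, with 1.41% and 1.87%, and on chromosome 9 from 133430717 to 133451048 at ADAMTS13, the gene of the von Willebrand factor protease, with 2.86% and 1.72%. A region on chromosome 8 from 144325924 to 144351891 over DGAT1 and SCRT1 had Ksu in replicate 2 alone, at 2.97%. These regions were ranked by their Ksu and carry no test.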

How the data were processed

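Peak lists of 8 CUT&Tag libraries were used, 2 per antibody and treatment. SEACR and build hg38 are named in the submitters' processing notes, and the deposited lists are one per library and marked stringent. The aligner and the threshold are not given in the sources used here. The deposited signal of each peak (total and highest) has a scale that differs between libraries (the lowest total signal of a Ksu peak was 997 and 7.14 in the succinate libraries), so signal ranked peaks only within a library. Read depth is unknown, and no counting interval is given.

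Peaks on 24 chromosomes were used, with lengths from the last peak or gene (3056 Mb in all). Cover is the share of bases under peaks, and relative cover divides it by the library's cover of all chromosomes. Gene bodies (20037 protein-coding genes) and gene starts came from RefSeq tables of GRCh38.p14. Presence in a gene means an overlap of 1 bp or more. Ksu and H3K27me3 libraries of the same replicate number were compared. Tests are exact two-sided permutation tests over 6 arrangements of 4 libraries (Python 3.11.15, NumPy 2.4.6), and the measures were tested on simulated data. Named genes and regions were those with extreme cover by a rule on body length of 5 kb or more and H3K27me3 of 50% or 0, plus up to 4 members with the highest H3K27me3 and up to 2 with the highest Ksu of 24 gene lists, not all of which are printed, and some items are not reported here. The members, lists, rules and tests were chosen with earlier results of these data known, and the analysis of gene starts was added after the peaks had been examined. Settings varied were peaks above the median signal (the top 50%), peak numbers made equal between libraries, 10% cover for presence, other window and edge sizes, crossed pairing, the replicate number as a block, and each replicate left out.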

Additional observations from a re-analysis of the deposited data

Results flagged for a closer look

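The rank correlation of Ksu with H3K27me3 cover over 1-Mb windows, taken after subtracting each chromosome's mean rank, was 0.42 in replicate 1 and 0.45 in replicate 2 of succinate-treated cells. In control cells it was -0.18 and -0.37. It is singled out because both pairs of one treatment lay on the opposite side of 0 from both pairs of the other. The difference itself was not tested.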

How the results depend on the processing

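Over 16 results, 115 alternative values were computed, of which 96 kept their direction, or stayed within 1 SD or 1.5 times for values and counts without a test, 10 moved and 9 changed direction. Keeping the direction does not mean a similar size. No p could fall below 0.33, so these are values and not calls. The antibody differences in covered length, median width and gene bodies kept their direction in every alternative run. Covered length was 0.36 with the top 50% of peaks and 0.46 at equal numbers over the succinate libraries (5531 H3K27me3 and 294568 Ksu peaks). It was 0.28 without Ksu replicate 2 and 1.08 without Ksu replicate 1. Gene bodies ranged from -0.106 with the top 50% to -0.0031 without H3K27me3 replicate 2. At equal numbers over the libraries of both treatments (5531 H3K27me3 and 76702 Ksu peaks) the mean log2 ratio of Ksu inside to outside H3K27me3 peaks moved to 1.23. The difference between treatments then became 0.076 within 1-Mb windows and 0.088 at the edges, the reverse of the main sign. Within windows it also changed sign without succinate replicate 2 (0.0097) and without control replicate 1 (0.019), with a range of -0.24 to 0.019. At the edges the same omissions gave 0.071 and 0.093, with a range of -0.23 to 0.093. The log2 ratio of ends to centre, near 0, became 0.034 with the top 50% and 0.030 at equal numbers over both treatments (76702 Ksu peaks). It was 0.017 without succinate replicate 1 and -0.021 without succinate replicate 2. Genes with both marks numbered 1251 with the top 50% and 812 at 10% cover. Genes with H3K27me3 and no Ksu numbered 297 with the top 50% and 325 at equal numbers over the succinate libraries (294568 Ksu peaks). They numbered 554 at 10% cover, and 174 to 555 when a library was left out (222 without Ksu replicate 1 and 555 without Ksu replicate 2). Genes with Ksu and no H3K27me3 numbered 1812 at 10% cover. Windows of 0.5 Mb where the antibodies did not overlap numbered 5320, against 2683 of 1 Mb, since there are more of them. Except where a setting itself uses fewer peaks or more windows, the cause was not tested.

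Same-numbered libraries of the antibodies did not deviate together (correlation of their deviations over windows 0.012 in succinate and 0.063 in control), while same-numbered libraries of one antibody did across treatments (0.69 for Ksu and 0.46 for H3K27me3). The labels do not say that a number marks a shared culture or day, and 2 numbers are too few to tell, so they were not taken as pairs. With the replicate number as a block every difference is equal by construction, for example 0.41 for Ksu inside against outside, with an SD of 0.070 between the numbers in place of 0.38, 0.68 for covered length, -4.76 for width and -0.034 for gene bodies, and the exact p is 0.5, the smallest possible. Crossed pairing changed no direction. Empty windows left out and expectation within chromosomes were chosen after seeing the data, and gave 0.80 and 0.69 for the ratio inside to outside. Read depth is unknown, and the Ksu libraries, with a Jaccard index of 0.0636, limit statements on single genes.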
